A study of Mus musculus with 12 samples.

Results

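Collagen chain genes were examined in the mammary gland of pregnant mice that received different supplies of methionine. Collagen genes were taken as every gene whose symbol is Col, a type number, the letter a and a chain number, and 44 of the 21956 protein-coding genes in the deposited tables carry such a symbol. Of these 44 genes, 25 had a mean of at least 1 FPKM over the libraries and entered the tests, among 11809 tested genes in all. FPKM counts sequenced fragments relative to transcript length and to all mapped fragments, so it is a level per length.

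The tissue was the 4th inguinal mammary gland, taken at day 17 of pregnancy from mice of the outbred ICR stock. In the Met-Met group, mice ate a diet lacking methionine from day 0 of pregnancy and were injected intraperitoneally with methionine, given at 35% of the amount in the control diet, with 25% of that injected methionine supplied as the dipeptide methionyl-methionine. In the Met group, the diet and the injected amount were the same, but all of the injected methionine was the free amino acid. Of the Control group the labels say only that it ate the control diet, and they do not mention injections. Each group had 4 libraries, 12 in all. Nothing in the labels states that each came from a separate mouse, so p-values reflect the spread among libraries, part of which could be technical. Met-Met against Met compares glands with and without the dipeptide at the same injected amount, whereas both comparisons with Control also differ in diet and injection.

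Collagens are the main structural proteins of the extracellular matrix, built from chains with repeated glycine triplets that wind into a triple helix after hydroxylation and folding in the endoplasmic reticulum. Fibrillar collagens such as types I, III and V form the fibrils of the stroma, type IV collagen forms the network of basement membranes that lies under mammary epithelium, fat cells and capillaries, and the remaining types decorate fibrils, form beaded filaments, or anchor cells. In the mammary gland stromal fibroblasts make most of the fibrillar collagen, and the stroma thins as the epithelium expands through pregnancy.

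Promoter sequences are shown for 3 genes that stand for the patterns described further on. Among the tested genes, Col1a2 was called lower than Control in Met and not in Met-Met, Col5a3 was called lower in both, and Col9a1 was the 1 called higher in Met than in Control. Each sequence is the 250 bases before a RefSeq start site in mouse build GRCm38.p6, on the strand of the gene. Col1a2 lies at chr6:4505368-4505617 on the plus strand and Col5a3 at chr9:20815068-20815317 on the minus strand. RefSeq lists 2 starts for Col9a1, with windows at chr1:24177360-24177609 and chr1:24194953-24195202 on the plus strand. Capitals mark matches, on either strand, to 4 short motifs. The CCAAT box is found in many promoters, as are the letters GGGCGG, which Sp1 family factors bind and which read CCGCCC on the other strand. The TATA box was searched as TATAAA. The core of the amino acid response element, which the factor ATF4 binds when amino acids are short, was searched as TGATGNAA.
Col1a2: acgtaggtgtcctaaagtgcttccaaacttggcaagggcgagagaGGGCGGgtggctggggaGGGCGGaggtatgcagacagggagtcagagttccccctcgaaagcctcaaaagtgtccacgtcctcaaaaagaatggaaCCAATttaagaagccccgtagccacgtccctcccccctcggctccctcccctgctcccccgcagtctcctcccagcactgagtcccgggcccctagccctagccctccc
Col5a3: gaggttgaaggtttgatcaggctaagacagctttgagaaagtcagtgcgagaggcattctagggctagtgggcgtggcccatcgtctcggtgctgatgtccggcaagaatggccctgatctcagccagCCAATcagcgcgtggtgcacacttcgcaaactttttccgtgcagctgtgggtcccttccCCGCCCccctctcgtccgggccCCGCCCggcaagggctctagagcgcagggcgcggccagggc
Col9a1 first start: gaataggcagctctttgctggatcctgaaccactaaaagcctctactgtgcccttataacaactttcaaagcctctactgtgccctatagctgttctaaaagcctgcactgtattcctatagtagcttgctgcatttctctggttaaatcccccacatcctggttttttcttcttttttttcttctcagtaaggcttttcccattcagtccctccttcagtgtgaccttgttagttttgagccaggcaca
Col9a1 second start: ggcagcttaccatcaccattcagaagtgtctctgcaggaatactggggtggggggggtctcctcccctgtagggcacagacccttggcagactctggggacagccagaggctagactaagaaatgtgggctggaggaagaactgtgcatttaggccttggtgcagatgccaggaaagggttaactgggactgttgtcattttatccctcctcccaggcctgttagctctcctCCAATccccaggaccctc

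Col1a2 and Col5a3 each held 1 CCAAT match and 2 matches to GGGCGG, and Col9a1 held 1 CCAAT match before its second start and no match before its first. RefSeq windows were found for 35 of the 44 collagen genes, 38 windows in all. CCAAT was in 34.2% of these windows and in 33.8% of the 32851 windows of all genes, and TATAAA was in 13.2% and 12.4%. GGGCGG was in 57.9% of collagen windows against 32.7% of all windows. TGATGNAA was in 0 of the 38 collagen windows and in 3.45% of all windows, which says only that these letters are not in those 250 bases. Among the 61 matches in collagen windows there were 2 overlapping pairs, both of GGGCGG, in Col8a2 and Col6a2. Col4a1 and Col4a2, whose chains assemble together into the main type IV collagen, are read in opposite directions on chromosome 8. Their RefSeq start sites lie 21 bases apart, at 11312826 on the minus strand and 11312805 on the plus strand. The genes thus overlap at their starts.

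Levels below are scaled FPKM, that is FPKM divided by one number per library so that the typical gene is level across libraries. Fold changes are log2 differences of scaled FPKM + 1, which understate the change of genes at low levels. A gene was called when its limma p, adjusted by Benjamini-Hochberg over all 11809 genes, was under 0.05. In Met against Control this rule called 28.4% of tested genes, with 14.8% lower and 13.6% higher, and in Met-Met against Control it called 20.2%, with 9.4% lower and 10.8% higher. In Met-Met against Met it called 11.6%, with 5.94% higher and 5.66% lower. With FPKM as deposited instead of scaled, the median of all genes shifted by −0.25 in Met against Control, by −0.12 in Met-Met against Control and by 0.15 in Met-Met against Met, and the calls split into 352 higher and 4299 lower, 499 higher and 1583 lower, and 1556 higher and 274 lower. All changes are given on the scaled values, for which the corresponding splits were 1610 and 1747, 1279 and 1110, and 701 and 668. The number of reads per library is not given with FPKM, so depth is unknown.

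Several libraries stood apart from the rest of their group. B cell and T cell markers were high in Control 1, Control 2 and Control 3 (summed B cell level 56.1 to 84.1), lower in Met-Met 1, Met-Met 3 and Met 4 (16.8 to 17.7) and at most 2.46 in the other 6 libraries. Met 2 stood out for skeletal muscle markers, whose sum was 328 there and no more than 7.41 in any other library, and for skin keratinocyte markers (76.0 there). The noncoding gene Gm26917 stood at 9013 to 9305 FPKM in Met-Met 2, Met 3 and Met 4 and at 72.3 to 99.2 FPKM in the other 9. Markers of mammary epithelium were present in all 12 libraries, with luminal epithelial genes summing to 961 or more and milk protein genes to 72940 or more, with the 4 highest milk protein sums in Met.

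Collagen mRNA was lower in Met glands than in Control glands, and the Met-Met libraries lay close to Control for most collagen genes. Of the 25 tested collagen genes, 20 were called in Met against Control, 19 lower and 1 higher, beside 28.4% of all tested genes. Met-Met against Met had 16 called, all higher, beside 5.94% of all tested genes called higher. In Met-Met against Control 3 were called, all lower, beside 9.4% of all tested genes called lower. The median log2 fold change of the 25 genes was 0.66 in Met-Met against Met, −0.08 in Met-Met against Control and −0.85 in Met against Control, while that of all tested genes was 0.00, 0.00 and 0.01. Each pair of comparisons shares the libraries of one group, so they are not independent of each other. In bulk tissue fewer cells of a type and less RNA per cell cannot be told apart, and this holds for every level given here.

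The groups were often fully separated. In Met-Met against Met, 18 collagen genes had every Met-Met library above every Met library, beside 8.43% of all tested genes, and 0 had every Met-Met library below every Met library, beside 7.81%. In Met against Control, 17 had every Met library below every Control library, beside 13.3% of all tested genes. By their calls, 12 genes were lower in Met than in Control, higher in Met-Met than in Met and not called in Met-Met against Control, among them Col1a1, Col1a2, Col3a1 and the type VI genes. Col4a1, Col4a2 and Col5a3 were called in all 3 comparisons.

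**Figure D1:**
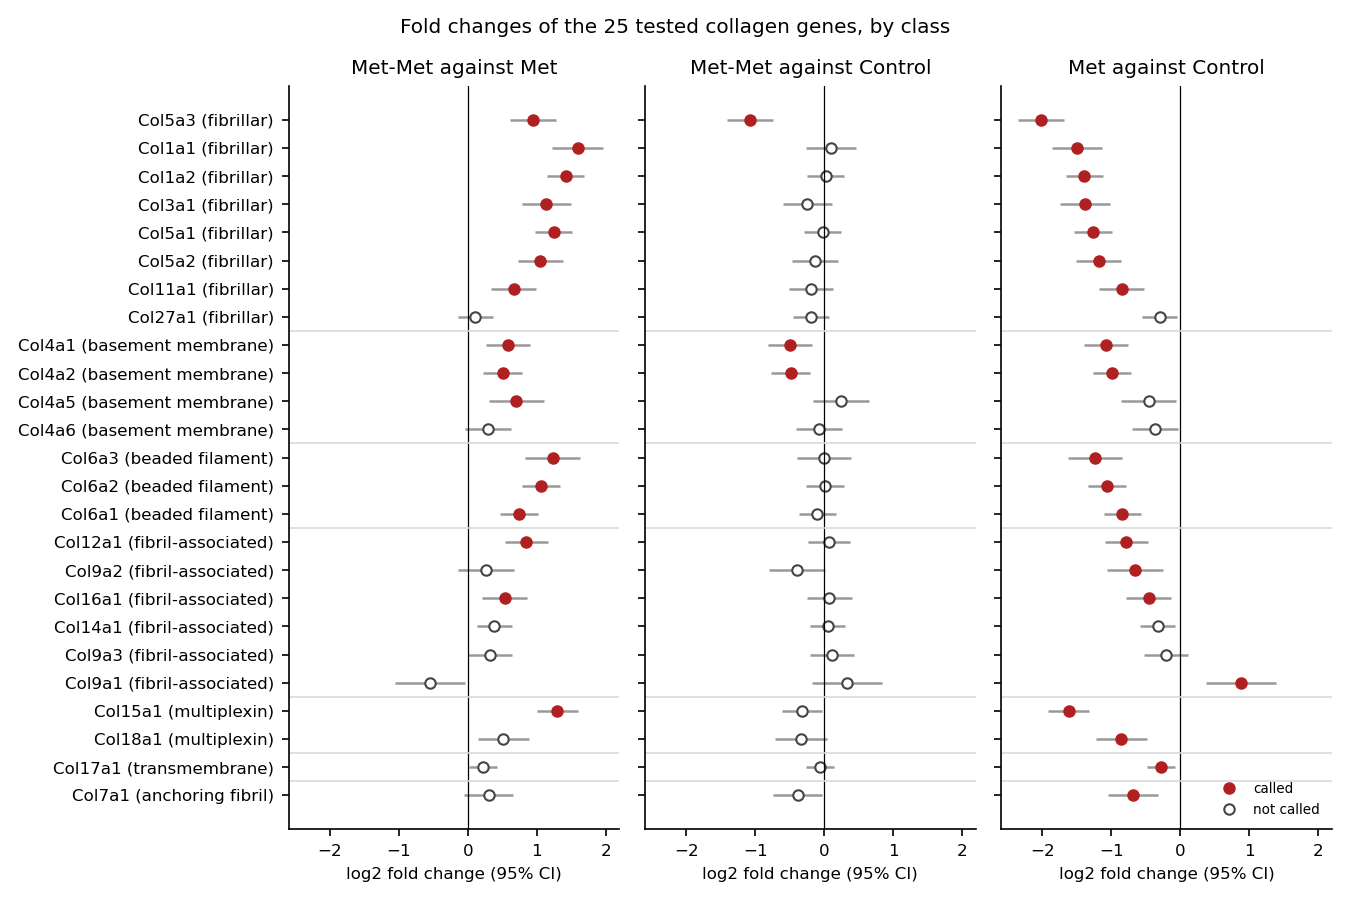
Log2 fold changes (x axis) of the 25 tested collagen genes (rows, grouped by class) in the 3 comparisons, with 95% confidence intervals as lines; filled points are genes called at an adjusted p under 0.05. In Met-Met against Met 24 of 25 points lie right of 0, in Met against Control 24 of 25 lie left of 0, and in Met-Met against Control the points lie on both sides, with Col5a3 at −1.08.

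By class, 7 of the 8 tested fibrillar genes were called higher in Met-Met against Met, 1 lower in Met-Met against Control and 7 lower in Met against Control, with median log2 fold changes of 1.10 in Met-Met against Met, −0.16 in Met-Met against Control and −1.33 in Met against Control. Of the 4 tested basement membrane genes, 3 were called higher in Met-Met against Met, 2 lower in Met-Met against Control and 2 lower in Met against Control, with medians of 0.54, −0.28 and −0.72. Of the 13 other collagen genes, 6 were called higher in Met-Met against Met, 0 were called in Met-Met against Control and 11 were called in Met against Control, 10 of them lower, with medians of 0.52, 0.00 and −0.69. Whether one class moved more than another was not tested.

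Type I collagen is the main fibril of connective tissue, built of Col1a1 and Col1a2 chains. Col1a1 stood at 244.6, 236.5, 164.5 and 265 in Met-Met, at 92.7, 70.4, 55.9 and 80.5 in Met and at 233.2, 207.9, 190.3 and 208.6 in Control. Every Met library was below every library of the other groups, and Met-Met and Control overlapped. The log2 fold change of Col1a1 was 1.59 ± 0.168 (SE) in Met-Met against Met (adjusted p = 0.000549), 0.10 in Met-Met against Control (adjusted p = 0.722, 95% interval −0.27 to 0.46) and −1.496 ± 0.168 in Met against Control (adjusted p = 0.000208). Col1a2 had 219.6, 222.4, 168.6 and 249.8 in Met-Met, 88.5, 74.0, 68.4 and 87.2 in Met and 220.1, 215, 192.9 and 209.6 in Control. Its groups were separated in the same way, with log2 fold changes of 1.42 (adjusted p = 0.000282), 0.03 (adjusted p = 0.906, 95% interval −0.24 to 0.29) and −1.39 (adjusted p = 5.71e-05). Met-Met 3 was the lowest Met-Met library for both type I genes, and for Col3a1, Col5a1 and Col5a3 as well.

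Col3a1 encodes type III collagen, which runs with type I in soft tissue, and was the most abundant collagen mRNA in all 12 libraries. It stood at 481.7, 428.1, 396.2 and 586 in Met-Met, at 275.1, 182.5, 176.6 and 227.7 in Met and at 672.8, 530.0, 492.8 and 538.9 in Control. Met was again below both other groups, and 3 of the 4 Met-Met libraries were below all 4 Control libraries while the fourth lay among them. Log2 fold changes were 1.14 in Met-Met against Met (adjusted p = 0.00254), −0.25 in Met-Met against Control (adjusted p = 0.31, 95% interval −0.60 to 0.11) and −1.38 in Met against Control (adjusted p = 0.00028).

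Type V collagen nucleates fibrils and sets their diameter, and its chains behaved unequally. Col5a1, the chain in every common form of type V, stood at 26.3, 25.6, 20.8 and 29.5 in Met-Met, at 11.3, 9.49, 8.42 and 11.6 in Met and at 29.6, 25.6, 23.3 and 24.7 in Control. Col5a2 stood at 29.9, 26.9, 30.6 and 43.0 in Met-Met, at 18.8, 14.7, 13.2 and 13.6 in Met and at 40.2, 37.5, 29.5 and 34.8 in Control. Both rose in Met-Met against Met, by 1.25 (adjusted p = 0.000549) and 1.054 (adjusted p = 0.00256), and both fell in Met against Control, by 1.27 (adjusted p = 8.96e-05) and 1.19 (adjusted p = 0.000416). Against Control the Met-Met values were −0.02 for Col5a1 (95% interval −0.29 to 0.25) and −0.13 for Col5a2 (95% interval −0.46 to 0.20), and neither was called.

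Col5a3, the third type V chain, was the collagen gene with the lowest fold change in both comparisons with Control. It stood at 11.1, 11.7, 9.46 and 16.7 in Met-Met, at 7.05, 5.91, 5.25 and 5.001 in Met and at 28.3, 26.0, 22.4 and 29.3 in Control, so the 3 groups did not overlap at all. Its log2 fold change was 0.94 in Met-Met against Met (adjusted p = 0.00417), −1.08 in Met-Met against Control (adjusted p = 0.00127) and −2.02 in Met against Control (adjusted p = 2.27e-05). It was the 1 tested collagen gene whose Met-Met libraries all lay below all Control libraries, beside 11.9% of all tested genes. The ratio of Col5a3 to Col5a1 was 0.475 ± 0.0621 in Met-Met, 0.576 ± 0.0965 in Met and 1.03 ± 0.107 in Control (SD, n = 4 each), with the Met-Met and Met libraries overlapping and all of them below the Control libraries.

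**Figure D2:**
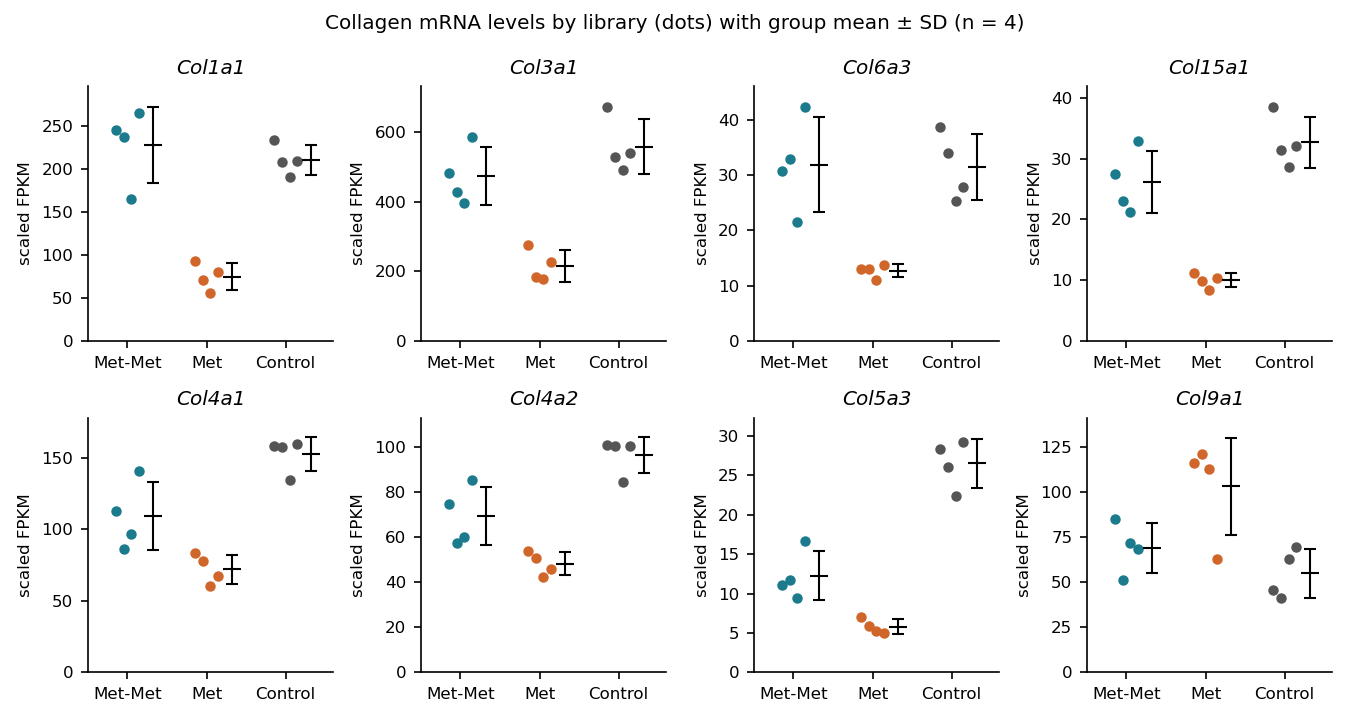
Scaled FPKM (y axis, from 0) of 8 collagen genes in each of the 12 libraries, as dots in library order within the Met-Met, Met and Control groups, with the group mean ± SD (n = 4) beside them. All 4 Met libraries were below all others for every gene shown except Col9a1, the Met-Met libraries overlapped Control for Col1a1 and Col6a3, 3 of 4 lay below all Control libraries for Col3a1, Col15a1, Col4a1 and Col4a2, Col5a3 stood apart in all 3 groups, and Col9a1 was highest in 3 Met libraries.

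Of the other fibrillar genes, Col11a1 (a minor chain that joins type V in fibrils) averaged 1.61 ± 0.390 in Met-Met, 0.656 ± 0.299 in Met and 1.97 ± 0.279 in Control. It was called in Met-Met against Met (0.66, adjusted p = 0.0161) and in Met against Control (−0.85, adjusted p = 0.00202). Its Met mean is under 1 FPKM, so it passed the minimum through the other groups. Col27a1, a thin-fibril collagen of cartilage, had a Met mean under 1 FPKM too, at 0.892 ± 0.241 beside 1.03 ± 0.178 in Met-Met and 1.32 ± 0.137 in Control, and was called in none of the comparisons. The Met-Met against Met call of Col11a1 was lost without Met-Met 4 (adjusted p = 0.0527), with a range of 0.0125 to 0.15 over all alternatives.

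Type IV collagen of most basement membranes is built of Col4a1 and Col4a2 chains. Col4a1 stood at 112.9, 86.2, 96.4 and 141 in Met-Met, at 83.1, 77.7, 60.3 and 67.5 in Met and at 158.4, 157.4, 134.7 and 159.4 in Control. Col4a2 stood at 74.7, 57.4, 60.1 and 85.2 in Met-Met, at 53.9, 50.8, 42.3 and 45.7 in Met and at 100.7, 100.4, 84.3 and 100.3 in Control. Met was below Met-Met and Control in each library for both genes, and Met-Met 4 alone reached the range of Control. Col4a1 rose by 0.58 in Met-Met against Met (adjusted p = 0.0274) and fell by 0.50 in Met-Met against Control (adjusted p = 0.032) and by 1.08 in Met against Control (adjusted p = 0.000563). Col4a2 rose by 0.50 (adjusted p = 0.0273) in Met-Met against Met and fell by 0.48 (adjusted p = 0.0216) and 0.99 (adjusted p = 0.000435) in the other 2 comparisons.

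The calls of Col4a1 and Col4a2 that involve Met-Met were lost in several of the fits that left out 1 library. In such fits of Met-Met against Control, the log2 fold change of Col4a1 stayed at −0.40 to −0.52. In Met-Met against Control, Col4a1 was not called without Control 1 (adjusted p = 0.0816), Control 2 (0.0818), Control 4 (0.0611), Met-Met 1 (0.056), Met-Met 2 (0.0837) or Met-Met 3 (0.0782), and Col4a2 was not called without Control 1 (0.0624), Control 2 (0.0614), Met-Met 2 (0.0577) or Met-Met 3 (0.0556). Both Met-Met against Met calls were lost without Met 3 (0.0776 for Col4a1 and 0.0775 for Col4a2), Met-Met 1 (0.0644 and 0.0688) or Met-Met 4 (0.0681 and 0.0734). Both kept their Met against Control calls without each library in turn.

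Col4a5 and Col4a6 encode the chains of another type IV network, found around smooth muscle among other sites, and are neighbours on the X chromosome. Col4a5 averaged 9.57 ± 1.65 in Met-Met, 5.56 ± 1.503 in Met and 7.97 ± 1.79 in Control and was called in Met-Met against Met alone (0.70, adjusted p = 0.0306). That call was lost without any of 5 libraries: Met 1 (0.0701) and Met 2 (0.0521), and from the Met-Met group libraries 1 (0.0557), 2 (0.0684) and 4 (0.0897). Col4a5 was called lower in Met against Control without Met 3 (adjusted p = 0.0412), against 0.082 with all libraries. Col4a6 averaged 1.94 ± 0.453 in Met-Met, 1.39 ± 0.167 in Met and 2.12 ± 0.602 in Control and was not called in any comparison, although without Control 3 it was called lower in Met against Control (adjusted p = 0.0228).

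Type VI collagen forms the beaded filaments around cells, fat cells in particular, mainly from the Col6a1, Col6a2 and Col6a3 chains. Col6a1 stood at 38.7, 35.6, 26.8 and 42.6 in Met-Met, at 19.98, 21.04, 21.02 and 21.15 in Met and at 43.8, 37.7, 34.1 and 37.0 in Control. Col6a2 stood at 44.5, 41.0, 30.3 and 46.4 in Met-Met, at 19.3, 17.6, 18.6 and 18.9 in Met and at 47.6, 39.4, 37.0 and 36.0 in Control. Col6a3 stood at 30.6, 33.0, 21.4 and 42.3 in Met-Met, at 12.9, 13.0, 11.01 and 13.8 in Met and at 38.6, 34.0, 25.4 and 27.8 in Control. For all 3 genes the Met libraries lay close together below all others, and Met-Met 3 was the lowest Met-Met library.

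All 3 type VI genes were called in both comparisons with Met and none in Met-Met against Control. In Met-Met against Met the log2 fold changes were 0.74 for Col6a1 (adjusted p = 0.00479), 1.07 for Col6a2 (adjusted p = 0.00106) and 1.23 for Col6a3 (adjusted p = 0.0028). In Met against Control they were −0.84 (adjusted p = 0.000833), −1.06 (adjusted p = 0.000297) and −1.23 (adjusted p = 0.00081). In Met-Met against Control they were −0.10, 0.01 and 0.00, with 95% intervals of −0.37 to 0.17 for Col6a1, −0.27 to 0.29 for Col6a2 and −0.40 to 0.39 for Col6a3. These intervals do not show that the groups are alike.

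Among the collagens that sit on fibrils, Col12a1 and Col14a1 bind the surface of type I fibrils. Col12a1 stood at 2.82, 3.48, 3.23 and 4.24 in Met-Met, at 1.71, 1.21, 1.26 and 1.64 in Met and at 2.43, 2.83, 3.81 and 3.94 in Control. It was called in Met-Met against Met (0.85, adjusted p = 0.0047) and in Met against Control (−0.78, adjusted p = 0.00241), with Met below both other groups. Col14a1 stood at 14.1, 15.7, 12.8 and 15.9 in Met-Met, at 11.8, 11.3, 11.8 and 9.002 in Met and at 15.1, 11.6, 13.5 and 16.2 in Control. Its Met libraries overlapped Control through Control 2, and the differences of 0.38 in Met-Met against Met (adjusted p = 0.0524) and −0.33 in Met against Control (adjusted p = 0.0518) missed the threshold. Without Control 2 both passed it (0.0444 and 0.0296), and the first passed it without Control 4 (0.0496) or Met-Met 3 (0.0466) as well.

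Col16a1, a minor fibril-associated chain found near smooth muscle and basement membranes, stood at 17.6, 13.1, 12.4 and 14.4 in Met-Met, at 11.99, 10.4, 7.70 and 8.59 in Met and at 14.3, 12.6, 11.1 and 16.4 in Control. It was called at 0.53 in Met-Met against Met (adjusted p = 0.0401) and −0.46 in Met against Control (adjusted p = 0.0402), where the groups overlapped. Both calls were near the threshold: the Met against Control call was lost without any of 7 single libraries and the Met-Met against Met call without any of 8, with adjusted p of 0.0516 to 0.109 and of 0.0544 to 0.11 in those fits.

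Col9a1 encodes a chain of type IX collagen, best known from cartilage, and was the 1 tested collagen gene called higher in Met than in Control. It stood at 84.7, 50.9, 71.6 and 68.4 in Met-Met, at 115.8, 120.8, 112.4 and 62.8 in Met and at 45.4, 41.4, 63.0 and 69.5 in Control. Met 1, Met 2 and Met 3 were above all other libraries, and Met 4 lay within the range of both other groups. Its log2 fold change was −0.55 in Met-Met against Met (adjusted p = 0.143), 0.33 in Met-Met against Control (adjusted p = 0.329) and 0.88 ± 0.232 (SE) in Met against Control (adjusted p = 0.0156). The Met against Control call was lost without Control 2 (adjusted p = 0.0513), and without Met 4 the gene was called lower in Met-Met against Met (−0.77, adjusted p = 0.0198). The Met against Control call was also lost with the mean of the B cell markers as a covariate (0.64, adjusted p = 0.167). It was lost as well with that of the adipocyte markers (0.93, adjusted p = 0.319) or of the fibroblast markers.

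The partner chains of type IX collagen did not follow Col9a1. Col9a2 averaged 2.58 ± 0.332 in Met-Met, 2.02 ± 0.667 in Met and 3.79 ± 1.07 in Control, and was called lower in Met against Control (−0.66, adjusted p = 0.0215). That call was lost without Control 1 (0.0608), Control 2 (0.055), Control 4 (0.0515) or Met 3 (0.0595), and without Control 3 the gene was called lower in Met-Met against Control (0.0427). Col9a3 averaged 2.87 ± 0.493 in Met-Met, 2.10 ± 0.326 in Met and 2.61 ± 0.708 in Control and was not called. Col9a1 exceeded Col9a3 by 24.0 ± 2.22 times in Met-Met, 50.2 ± 16.3 times in Met and 21.8 ± 7.01 times in Control, and 99.9% of the Col9a1 level came from 1 transcript in each group. The 7 chondrocyte markers together summed to between 0.561 and 2.49 in every library, and the highest of these sums was in Control 1.

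Type XV and XVIII collagens, the multiplexins, are proteoglycans of basement membrane zones. Col15a1 stood at 27.5, 23.1, 21.2 and 32.8 in Met-Met, at 11.2, 9.80, 8.44 and 10.3 in Met and at 38.4, 31.5, 28.6 and 32.1 in Control. Its log2 fold change was 1.298 in Met-Met against Met (adjusted p = 0.000549), −0.32 in Met-Met against Control (adjusted p = 0.115) and −1.62 in Met against Control (adjusted p = 4.92e-05), the lowest after Col5a3. Without Met-Met 4, which lay above 3 of the 4 Control libraries, Met-Met against Control was called for Col15a1 (−0.43, adjusted p = 0.0412).

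Col18a1 stood at 9.41, 7.47, 8.43 and 13.4 in Met-Met, at 7.71, 6.44, 6.16 and 5.14 in Met and at 13.9, 13.8, 9.27 and 12.5 in Control. It was called in Met against Control (−0.85, adjusted p = 0.0042) and was not called in Met-Met against Met (0.52, adjusted p = 0.0704) or in Met-Met against Control (−0.34, adjusted p = 0.183), with Met-Met overlapping both other groups.

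Col17a1 and Col7a1 fasten epithelium to the matrix. Col17a1, the transmembrane collagen of hemidesmosomes, stood at 4.68, 4.30, 4.05 and 4.69 in Met-Met, at 3.62, 3.23, 4.26 and 3.54 in Met and at 4.09, 4.44, 4.88 and 5.19 in Control. It was called in Met against Control (−0.28, adjusted p = 0.0405), a call lost without any of 9 single libraries, with adjusted p up to 0.0977. Col7a1, which builds the anchoring fibrils under epithelia, averaged 2.13 ± 0.121 in Met-Met, 1.57 ± 0.440 in Met and 3.18 ± 1.04 in Control, and was called in Met against Control (−0.69, adjusted p = 0.0102) but not in the other comparisons. That call was kept without each library in turn. It was lost after quantile normalization and without the 3 libraries with high Gm26917 (adjusted p up to 0.0829). With the adipocyte or fibroblast marker mean as a covariate it was lost too.

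**Figure D3:**
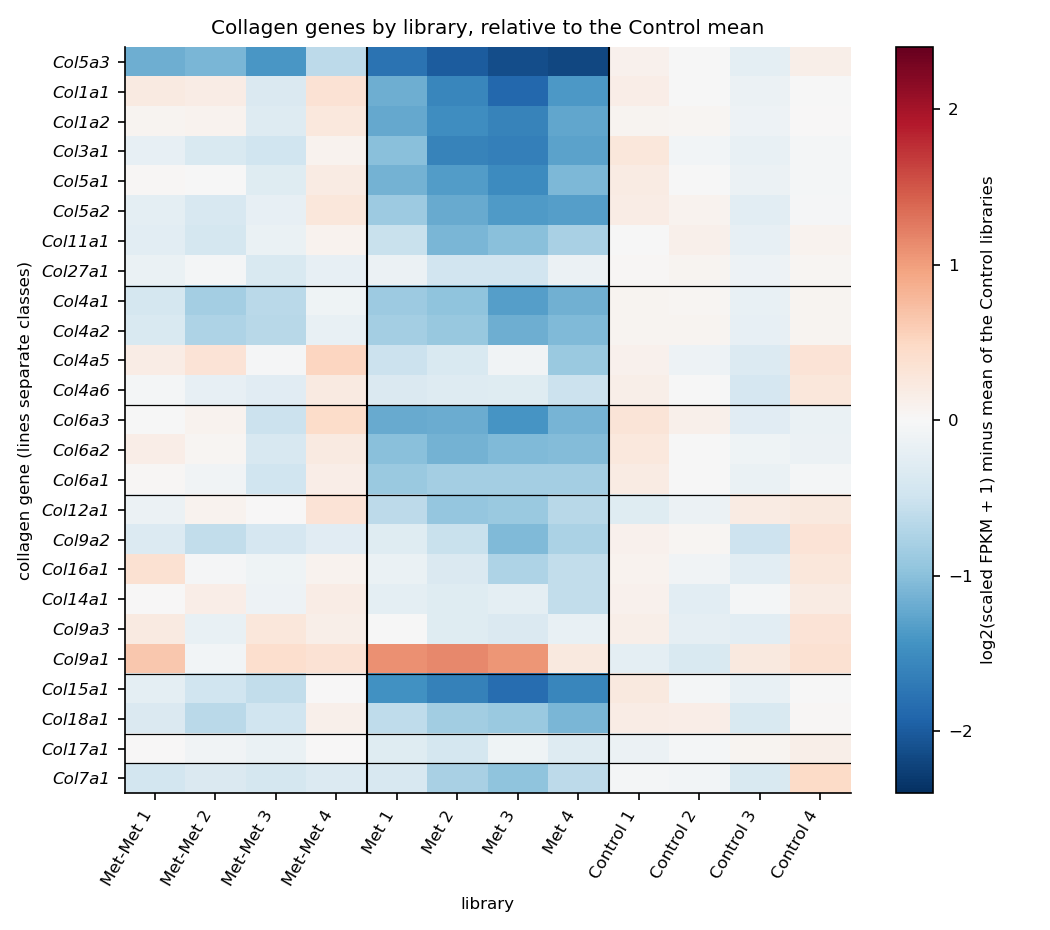
Log2(scaled FPKM + 1) minus the mean of the Control libraries (colour) for the 25 tested collagen genes (rows, grouped by class) in the 12 libraries (columns); blue is below the Control mean and red above it. The 4 Met columns are blue for nearly all genes, Met-Met 3 is the bluest column of its group for the type I and VI genes, and Col9a1 is the one row that is red in all 4 Met columns.

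The other 19 collagen genes averaged under 1 FPKM and were not tested. They comprise the fibrillar genes Col2a1, Col11a2 and Col24a1, the type IV genes Col4a3 and Col4a4, the type VI genes Col6a4, Col6a5 and Col6a6, the short-chain genes Col8a1, Col8a2 and Col10a1, and Col13a1, Col19a1, Col20a1, Col22a1, Col23a1, Col25a1, Col26a1 and Col28a1. Col2a1, the fibril of cartilage, was at most 0.197 in any library and listed at 0 in 7, and Col10a1 was listed at 0 in 9. When all 21956 genes were tested, Col4a3, Col4a4, Col6a4 and Col8a1 were called lower in both comparisons with Control. Of all 21956 genes, that fit called 1133 lower in Met-Met against Control and 1770 lower in Met against Control. Col4a4 averaged 0.159 ± 0.0216 in Met-Met, 0.141 ± 0.0151 in Met and 0.296 ± 0.0481 in Control (adjusted p = 0.00497 in Met-Met against Control and 0.00188 in Met against Control). Col8a1, a short-chain collagen of vessel walls and smooth muscle, averaged 0.306 ± 0.0868 in Met-Met, 0.161 ± 0.0567 in Met and 0.620 ± 0.126 in Control (adjusted p = 0.0165 and 0.00187).

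Collagen mRNA as a whole took 0.264, 0.244, 0.236 and 0.297% of the summed protein-coding FPKM in Met-Met, 0.137, 0.0956, 0.0882 and 0.118% in Met and 0.443, 0.356, 0.257 and 0.304% in Control. Met lay below all other libraries, and Met-Met overlapped Control. Group means were 0.260 ± 0.0270% in Met-Met, 0.110 ± 0.0221% in Met and 0.340 ± 0.0797% in Control. Scaled and summed, the 44 genes came to 1441 ± 234 in Met-Met, 736 ± 92.2 in Met and 1589 ± 147 in Control (SD, n = 4 each). Fibrillar genes held 0.179 ± 0.0193%, 0.0605 ± 0.0167% and 0.229 ± 0.0579% of the summed FPKM in Met-Met, Met and Control, and basement membrane genes 0.0344 ± 0.00540%, 0.0189 ± 0.00314% and 0.0554 ± 0.0115%. Col1a1, Col1a2 and Col3a1 together made up 63.5 ± 1.72% of collagen FPKM in Met-Met, 50.02 ± 4.91% in Met and 61.5 ± 1.40% in Control.

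Ratios within a library do not depend on scaling. The chains of type I collagen kept nearly equal levels, with a Col1a1 to Col1a2 ratio of 1.054 ± 0.0574 in Met-Met, 0.935 ± 0.0946 in Met and 1.00 ± 0.0402 in Control, and the Col4a1 to Col4a2 ratio was 1.57 ± 0.0735 in Met-Met, 1.49 ± 0.0532 in Met and 1.58 ± 0.0143 in Control. For Col4a1 to Col4a2 the Met libraries (1.43 to 1.54) all lay below the Control libraries (1.57 to 1.60), and Met-Met overlapped both. Within type VI, Col6a3 stood to Col6a1 as 0.877 ± 0.0987 in Met-Met, 0.610 ± 0.0599 in Met and 0.820 ± 0.0838 in Control, and the Met libraries (0.523 to 0.653) did not overlap the others (0.744 to 0.993). Col4a1 stood to Col1a2 as 0.510 ± 0.0851 in Met-Met, 0.911 ± 0.115 in Met and 0.728 ± 0.0259 in Control, with no overlap between the 3 groups. Relative to Col1a2, Col4a1 was thus lowest in Met-Met and highest in Met.

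**Figure D4:**
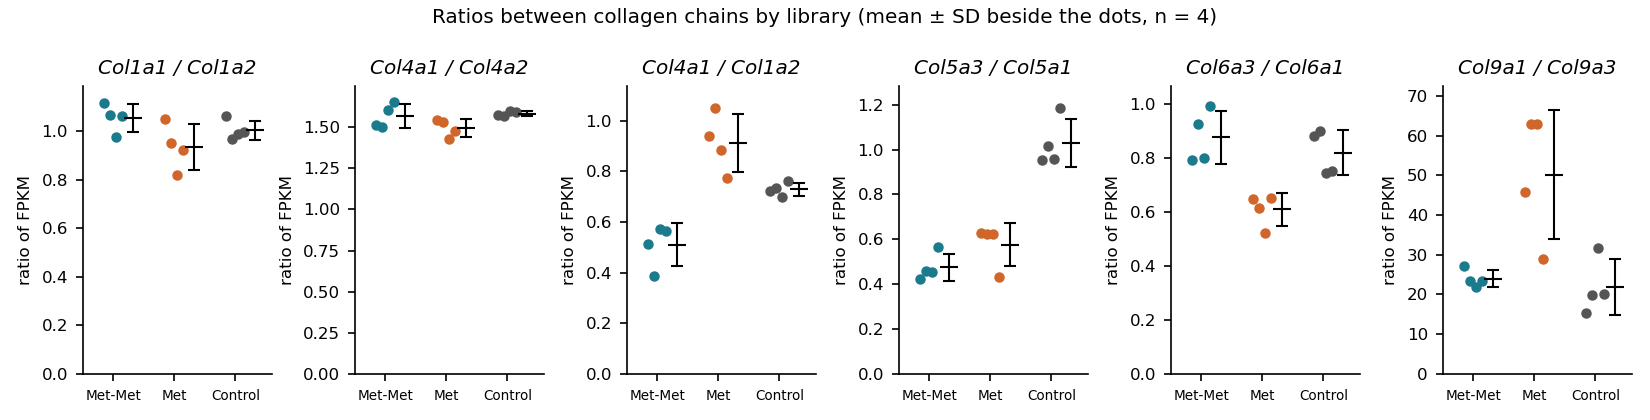
Ratios of FPKM between pairs of collagen chains (y axis, from 0) in each library, with group mean ± SD (n = 4) beside the dots. The Col1a1 to Col1a2 ratio overlaps between groups, Col4a1 to Col4a2 is lower in every Met library than in every Control library with Met-Met overlapping both, Col4a1 to Col1a2 separates all 3 groups, and Col5a3 to Col5a1 separates Control from both other groups.

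Some genes drew on several transcripts. For Col15a1 the transcript ENSMUST00000082303 made up 16.6, 22.1, 16.1 and 12.3% of the gene's FPKM in Met-Met, was listed at 0 in all 4 Met libraries, and made up 17.8, 10.5 and 18.6% in Control 2 to Control 4 while listed at 0 in Control 1. The transcript ENSMUST00000130732 of Col4a5 made up 29.8 ± 4.84% in Met-Met, 11.3 ± 8.63% in Met and 13.0 ± 7.23% in Control. Col6a2 had 21.5 ± 4.12%, 30.8 ± 3.5% and 21.6 ± 2.29% from ENSMUST00000105413 in Met-Met, Met and Control. How the assembly tool divided shared reads between transcripts cannot be seen in FPKM, so these shares are uncertain.

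Other genes of collagen production and turnover were taken from lists chosen with earlier results of these data known. Of all tested genes, 5.94% were called higher and 5.66% lower in Met-Met against Met, and 10.8% and 9.4% in Met-Met against Control. In Met against Control the shares were 13.6% and 14.8%. With FPKM as deposited, 352 of all 11809 genes were higher there and 4299 lower. After quantile normalization 1497 were higher there and 1433 lower. Whether any list below differed from these shares was not tested. Of 21 tested modification and folding genes, 7 were called higher in Met-Met against Met and 0 lower, 6 higher and 0 lower in Met-Met against Control, and 6 higher and 8 lower in Met against Control, where the counts were 1 and 10 with FPKM as deposited and 2 and 4 after quantile normalization. With FPKM as deposited, 11 were higher and 0 lower in Met-Met against Met, and 4 higher and 1 lower in Met-Met against Control. After quantile normalization, 8 were higher and 0 lower in Met-Met against Met, and 10 higher and 0 lower in Met-Met against Control. P4hb, the disulfide isomerase that is also a subunit of prolyl hydroxylase, averaged 385 ± 58.7 in Met-Met, 405 ± 58.7 in Met and 229 ± 33.9 in Control, and rose in both comparisons with Control (0.75, adjusted p = 0.00473, and 0.82, adjusted p = 0.00192). Fkbp10, a chaperone of procollagen, followed the collagens instead, at 5.47 ± 0.942 in Met-Met, 2.798 ± 0.505 in Met and 4.51 ± 0.0876 in Control (0.77 in Met-Met against Met, adjusted p = 0.00298, and −0.55 in Met against Control, adjusted p = 0.00542). Crtap, a partner of a prolyl 3-hydroxylase, and P3h3, a member of the prolyl 3-hydroxylase family, fell in Met against Control (−0.41, adjusted p = 0.00895, and −0.46, adjusted p = 0.00487, the call of P3h3 being lost after quantile normalization, adjusted p = 0.0767).

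Of 9 tested export and processing genes, 3 were called higher and 1 lower in Met-Met against Met, 0 in either direction in Met-Met against Control, and 2 higher and 4 lower in Met against Control. With FPKM as deposited the counts were 5 higher and 1 lower in Met-Met against Met and 0 higher and 5 lower in Met against Control, where quantile normalization gave 1 higher and 4 lower. Limma gave 1 of the 9 an unadjusted p under 0.05 in each direction of Met-Met against Control. Pcolce, which speeds removal of the C-terminal propeptide, averaged 11.4 ± 2.48 in Met-Met, 4.59 ± 1.38 in Met and 8.32 ± 1.13 in Control (1.15 in Met-Met against Met, adjusted p = 0.00382, and −0.76 in Met against Control, adjusted p = 0.0105). Adamts2, which removes the N-terminal propeptide, averaged 5.46 ± 0.984 in Met-Met, 3.09 ± 0.301 in Met and 7.004 ± 1.47 in Control (0.65, adjusted p = 0.0136, and −0.95, adjusted p = 0.000807). Mia3, the exit-site receptor for large procollagen cargo, was called higher in Met against Control (0.43, adjusted p = 0.00531), but not with FPKM as deposited (0.12, adjusted p = 0.296) or after quantile normalization (0.18, adjusted p = 0.0945).

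All 3 tested lysyl oxidases, which crosslink collagen, fell in Met against Control. Lox averaged 11.8 ± 0.961 in Met-Met, 9.42 ± 2.10 in Met and 23.7 ± 3.503 in Control and fell in both comparisons with Control (−0.94, adjusted p = 0.00165, and −1.25, adjusted p = 0.000208). Loxl1 averaged 13.1 ± 2.12 in Met-Met, 6.02 ± 0.503 in Met and 12.02 ± 1.58 in Control and rose by 1.00 in Met-Met against Met (adjusted p = 0.001), while Loxl2 rose by 0.65 (adjusted p = 0.00514). Lox had a log2 fold change of 0.32 in Met-Met against Met and was not called (adjusted p = 0.161).

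Of 11 tested breakdown genes, 2 were called higher and 1 lower in Met-Met against Met, and 4 lower in Met-Met against Control. In Met against Control 1 was called higher and 6 lower. There the counts were 0 higher and 9 lower with FPKM as deposited, in a fit that called 4299 of all 11809 genes lower. After quantile normalization they were 1 higher and 3 lower. With FPKM as deposited, 4 were higher and 1 lower in Met-Met against Met. The inhibitors of matrix proteases went separate ways. Timp1 averaged 4.79 ± 0.845 in Met-Met, 1.73 ± 0.234 in Met and 3.59 ± 1.15 in Control, and Timp3 averaged 17.1 ± 1.81 in Met-Met, 29.4 ± 5.14 in Met and 21.1 ± 0.742 in Control. Timp1 rose by 1.08 in Met-Met against Met (adjusted p = 0.00346), where Timp3 fell by 0.74 (adjusted p = 0.00298). Timp4 averaged 2.67 ± 0.863 in Met-Met, 3.55 ± 0.686 in Met and 7.19 ± 0.584 in Control and fell in both comparisons with Control (−1.19, adjusted p = 0.00109, and −0.86, adjusted p = 0.00318).

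Of 6 tested collagen receptors, 3 were called lower in Met-Met against Control and 4 in Met against Control, with 0 called in Met-Met against Met by limma, where 1 of the 6, Itga2, had an unadjusted p under 0.05 (0.0151) and the fits with other scalings also called 0. After quantile normalization the counts against Control were 1 and 3. Itga1, the alpha subunit of a collagen-binding integrin, averaged 4.12 ± 0.779 in Met-Met, 3.41 ± 0.209 in Met and 6.70 ± 0.6002 in Control (−0.60, adjusted p = 0.00309, and −0.80, adjusted p = 0.000435). Of 11 tested genes of TGF-beta signalling and fibrosis, a pathway known to induce collagen genes, 3 were called higher in Met-Met against Met, 3 lower in Met-Met against Control and 7 lower in Met against Control. Tgfbr2, the type II receptor, averaged 43.2 ± 3.46 in Met-Met, 30.3 ± 2.602 in Met and 41.2 ± 3.45 in Control (0.50 in Met-Met against Met, adjusted p = 0.00623, and −0.43 in Met against Control, adjusted p = 0.00506). Tgfb1, a ligand, averaged 9.05 ± 1.03 in Met-Met, 8.08 ± 0.836 in Met and 12.8 ± 2.19 in Control and fell in both comparisons with Control (−0.45, adjusted p = 0.0272, and −0.59, adjusted p = 0.0056).

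Markers of the cells that make collagen were measured beside it, leaving out the collagens themselves. Their counts stand beside the shares of all tested genes given with the gene lists above. The 14 fibroblast markers summed to 236 to 335 in Met-Met, 311 to 382 in Met and 363 to 488 in Control. Dcn and Gsn, the most abundant of them, made up much of that sum, at 87.4 and 70.5 in Met-Met and 120.2 and 113.5 in Met. The median log2 fold change over the 14 markers was 0.18 in Met-Met against Met, −0.24 in Met-Met against Control and −0.34 in Met against Control. In Met-Met against Met, Thy1 (1.10) and Lum (0.63) were called higher, and Gsn (−0.68) and Abca8a (−0.43) lower. These genes were named after their values were seen. Of the 14, 2 were called higher and 2 lower in Met-Met against Met, 0 higher and 3 lower in Met-Met against Control, and 1 higher and 6 lower in Met against Control. The 12 adipocyte markers summed to 1255 to 2521 in Met-Met, 2304 to 2875 in Met and 2727 to 3078 in Control, with 0 higher and 8 lower in Met-Met against Control, and 2 higher and 8 lower in Met against Control. The 9 myoepithelial markers summed to 437 to 510 in Met-Met, 271 to 332 in Met and 471 to 548 in Control, with Met below both other groups. Of these, 4 were called higher and 1 lower in Met-Met against Met, and 1 higher and 4 lower in Met against Control. The 10 endothelial markers summed to 71.3 to 109.6 in Met-Met, 85.5 to 101.4 in Met and 110.6 to 119.4 in Control. In each comparison with Control, 3 endothelial markers were called lower and 0 higher. Smooth muscle and pericyte markers summed to 102 to 111 in Met-Met, 84.0 to 102 in Met and 119 to 139 in Control. The 9 macrophage markers summed to 158 to 198 in Met-Met, 140 to 169 in Met and 177 to 315 in Control, with 5 called higher and 0 lower in Met-Met against Met, 0 higher and 2 lower in Met-Met against Control, and 1 higher and 7 lower in Met against Control. The 6 milk protein genes summed to 124000 to 172900 in Met-Met, 185900 to 262400 in Met and 72940 to 171900 in Control, so every Met library was above all others. Of these 6, 1 was called higher and 0 lower in Met-Met against Met and in Met-Met against Control, and 4 higher and 1 lower in Met against Control.

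With the mean of the fibroblast markers as a covariate, 12 collagen genes were called in Met-Met against Met, 1 in Met-Met against Control and 10 in Met against Control. With the mean of the adipocyte markers, 15, 0 and 4 were called, and the 4 were Col1a2, Col5a1, Col5a3 and Col15a1. The median log2 fold change of the 25 genes was 0.63, −0.03 and −0.81 with the fibroblast covariate and 0.75, 0.01 and −0.71 with the adipocyte covariate, in the same order of comparisons. Of all 11809 genes, these fits called 974, 441 and 339 with the fibroblast markers and 918, 0 and 66 with the adipocyte markers. With the mean of the B cell markers, 17, 3 and 21 collagen genes were called. The medians of the 25 genes there were 0.67, −0.14 and −0.97. Of all 11809 genes, that fit called 1362, 1452 and 1467. Limma gave 0 collagen genes an unadjusted p under 0.05 in Met-Met against Control with the adipocyte covariate. The part of the myoepithelial, endothelial, smooth muscle and pericyte, macrophage and milk protein genes in these results was not tested.

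Without Met-Met 2, Met 3 and Met 4, the libraries with high Gm26917, 11 collagen genes were called in Met-Met against Met, 1 in Met-Met against Control and 16 in Met against Control, and of all 11809 genes 910, 1864 and 2351 were called in that fit. Leaving out the 6 lymphocyte-bearing libraries kept a single Control library, whose spread had to be taken from the other groups, and 11 were called in Met-Met against Met (10 higher and Col9a1 lower), 0 in Met-Met against Control and 0 in Met against Control. In that smaller fit limma called 450, 5 and 8 of all 11809 genes, the collagen medians were 0.70, −0.17 and −0.97, and 17, 2 and 23 of the 25 collagen genes had an unadjusted p under 0.05. Leaving out each library in turn gave 11 to 17 calls in Met-Met against Met, 1 to 4 in Met-Met against Control and 17 to 21 in Met against Control. The calls over all 11809 genes in those fits were 666 to 2302, 1315 to 2732 and 2114 to 3570. Without either of Control 1 and Control 2, or either of Met-Met 2 and Met-Met 3, 1 collagen gene was called in Met-Met against Control, and Col5a3 was called without each library in turn.

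**Figure D5:**
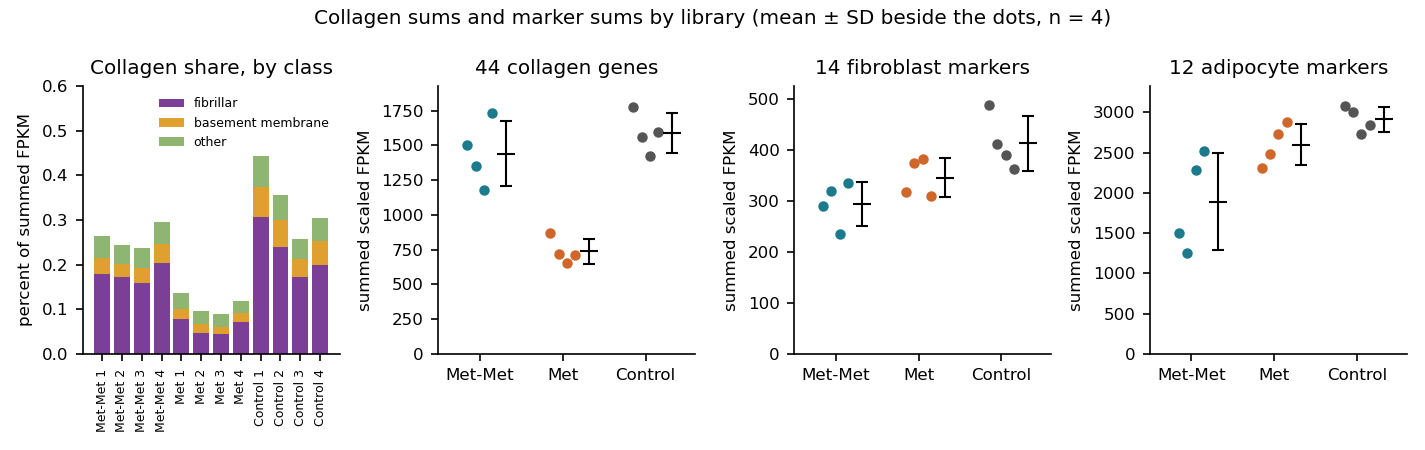
From left to right, the collagen share of summed FPKM per library, stacked by class, and the summed scaled FPKM of the 44 collagen genes, 14 fibroblast markers and 12 adipocyte markers per library, with group mean ± SD (n = 4) beside the dots. The collagen sum is lowest in Met (736 ± 92.2). The fibroblast sum, of which Dcn and Gsn make up much, and the adipocyte sum, of which Fabp4, Cfd and Lpl make up much, have their lowest libraries in Met-Met.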

How the data were processed

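RNA was extracted with TRIzol and sequenced on Illumina libraries, per the labels' protocols. The authors deposited FPKM per transcript for protein-coding genes in each library, and the number of reads behind a value is not given. StringTie 1.3.1, HISAT2 2.0.4 and Bowtie2 2.2.8 are listed without roles, beside builds mm9 and GRCm38, per the submitters' processing notes. FPKM was summed per gene. Libraries were scaled by the median, over genes averaging 1 FPKM or more, of the gene's value relative to its mean over the 12 (divisors 0.815 to 1.20), and log2(scaled FPKM + 1) was fitted in limma 3.58.1 (R 4.3.3) with 3 group means over 12 libraries and an intensity trend. P-values were adjusted by Benjamini-Hochberg over 11809 genes and called under 0.05, after tests on simulated data. Per-library values are given for collagens by the rule fixed in the design. The pathway genes named are among those with the smallest p of a comparison in their list, and others with such a p are not named. The collagens, lists and tests were chosen with earlier results of these data known. Alternatives were other scalings, no filter, a replicate block, marker covariates and left-out libraries. Promoters came from RefSeq GRCm38.p6. Python 3.11.15, numpy 2.4.6, pandas 2.3.3, scipy 1.17.1 and matplotlib 3.10.9 were used.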

Additional observations from a re-analysis of the deposited data

Results flagged for a closer look

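For 18 collagen genes the 4 libraries of each group, 54 groups in all, were examined for a library far from the others by Dixon's criterion, and 4 groups held one. Chance flags about 1 in 20 groups. Col4a1 and Col4a2 were both lowest in Control 3 among the Control libraries, at 134.7 and 84.26 scaled FPKM. Col6a1 was lowest in Met 1 among the Met libraries, at 19.98 scaled FPKM, in a group whose other 3 libraries lay within 21.0 to 21.2. Col9a1 was lowest in Met 4 among the Met libraries, at 62.81 scaled FPKM, and Met 4 also carried lymphocyte markers and high Gm26917. The part of these in the Col9a1 value was not tested.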

How the results depend on the processing

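FPKM without read numbers gives no depth, so how far depth limits the low genes is unknown. Of the 20 collagen genes called in Met against Control, 4 were called with the adipocyte marker covariate and 10 with the fibroblast covariate. The B cell covariate fit called 21 of the 25 tested genes there, but not Col9a1 or Col17a1. Without the 6 lymphocyte-bearing libraries only 1 Control library was left. The median log2 fold change of the 25 genes was then −0.17 in Met-Met against Control and −0.97 in Met against Control. Of the 3 in Met-Met against Control, the adipocyte covariate fit called 0 and the fibroblast covariate fit 1. Without the 3 libraries with high Gm26917, 1 was called. With the B cell covariate Col4a1 was not called (adjusted p = 0.0586). Testing without a filter called 2 of the 25 genes and 6 of all 44, beside 2195 of all 21956 genes. The 6 include Col4a3, Col4a4, Col6a4 and Col8a1, which average under 1 FPKM. With the adipocyte covariate the Met-Met against Control value of Col4a1 was 0.039 and not called. Why the counts differ between fits was not tested, and the fits with libraries left out also have fewer samples. Leaving out 1 library gave 11 to 17 calls in Met-Met against Met, 1 to 4 in Met-Met against Control and 17 to 21 in Met against Control. Of all 11809 genes, those fits called 666 to 2302, 1315 to 2732 and 2114 to 3570. As a summed scaled level, in percent of the mean of all libraries, the collagen differences were 56.1, −11.8 and −67.9, and the difference in share between Met-Met and Met was 0.204 percentage points without milk genes, against 0.150 with them. Same-numbered libraries did not deviate together (correlations −0.409 to 0.17), so the numbers were not taken to pair them. With a replicate block, 15, 3 and 19 collagen genes were called, beside 846, 1690 and 2446 of all 11809 genes. In every alternative run, 10 of the 16 calls in Met-Met against Met were kept. For the comparisons with Control that count includes a fit with 1 Control library, so it is not given. Leaving aside that fit and the marker covariates, 11 of 16 calls were kept in Met-Met against Met. In Met-Met against Control 1 of 3 were kept, and in Met against Control 15 of 20. The calls kept without each library in turn were 11, 1 and 16.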
